A study of Homo sapiens with 16 samples.

Results

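The genes described are 10 receptor tyrosine kinases of mesenchymal and breast cells: PDGFRA, PDGFRB, EGFR, ERBB2, ERBB3, MET, FGFR1, AXL, DDR1 and DDR2. They were taken by symbol from a table of 20114 genes, and all 10 were among the 14035 genes that passed the filter on low counts. RNA was sequenced from the lines Hs578 and TT642, each as parental cells with no hairpin and as 3 sublines made from them. A subline expresses, once doxycycline is added, an shRNA (a short hairpin RNA that lowers its target's mRNA) against PRRX1, the gene of a homeodomain transcription factor found in mesenchyme. Every parental line or subline was sequenced without and with 3 µg/ml doxycycline, which gave 16 libraries in 8 groups: per line, 1 parental library and 3 hairpin libraries in each state. Hs578 carries the source label of breast cancer cells, and TT642 that of rhabdoid tumour cells, although the series design counts both as triple-negative breast cancer. The titles number the hairpin libraries 1 to 3. The numbers were read as 3 different hairpins, 1 per subline and the same in both lines, although 3 replicates of 1 hairpin could be numbered likewise. No library is labelled as carrying a non-targeting hairpin. The treatment time and any statement on separate cultures are missing from the labels. P-values measure the spread between these libraries. On the reading given, that spread holds differences between sublines and hairpins together with technical ones, in shares that are not known.

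Receptor tyrosine kinases span the cell membrane. Binding of a ligand outside brings receptor chains together, and their kinase domains then phosphorylate each other and recruit adaptors that lead to RAS, ERK, PI3K and STAT signalling. PDGFRA and PDGFRB, the receptors of platelet-derived growth factors, are receptors of fibroblasts and other mesenchymal cells, as are DDR2, a receptor for fibrillar collagen, and AXL, a receptor for GAS6 that is often high in mesenchymal tumour cells. EGFR, ERBB2 and ERBB3 form the ERBB family with ERBB4. ERBB2 is the HER2 receptor of breast cancer and has no known ligand of its own, whereas ERBB3 binds neuregulins and has a weak kinase domain. MET is the receptor of hepatocyte growth factor, FGFR1 a receptor of fibroblast growth factors, and DDR1 a collagen receptor of epithelial cells.

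Total counts ran from 13461527 to 19139654 in Hs578 libraries and from 15265227 to 24672906 in TT642 libraries. PRRX1 checked the labels. With doxycycline, 12.7%, 32.1% and 19.5% of its level was left in Hs578 hairpin lines 1, 2 and 3, and 21.8%, 13.0% and 39.4% in those of TT642, against 103% in the parental cells of each line. Epithelial markers summed to 246 to 441 CPM (counts scaled to library size) in Hs578 libraries, where 4 of 10 reached a mean of 1 CPM, and to 2.15 to 5.55 CPM in TT642 libraries, where 1 did, with CDH1 and EPCAM near 0 in both. VIM, the mesenchymal filament protein, was at 1943 ± 99.0 FPKM (SD, n = 3) in uninduced Hs578 hairpin lines and 5364 ± 274 FPKM (SD, n = 3) in those of TT642. The sum of 8 mesenchymal markers, VIM included, went the other way, at 18700 to 20919 CPM in those Hs578 lines and 10450 to 11461 CPM in TT642. In the comparison of the lines given below, 6 of the 8 were called higher and 2 lower in Hs578, where 41.0% and 39.7% of all genes were. Blood markers stayed at or below 2.06 CPM and endothelial markers at or below 0.990 CPM in sum. SMARCB1, the chromatin gene that rhabdoid tumours typically lose, was measured in both lines, at 51.7 ± 3.28 and 22.4 ± 1.58 FPKM (SD, n = 3 each). Of the counts in uninduced Hs578 hairpin lines, 2.16% to 2.79% came from mitochondrial transcripts, against 3.18% to 5.44% in induced ones, and 2.73% and 4.16% in parental Hs578 cells without and with doxycycline. The 8 mesenchymal markers summed to 18700 to 20919 CPM in uninduced and 23055 to 29313 CPM in induced Hs578 hairpin lines, and to 18639 and 35036 CPM in the parental pair. Their part in the results was not tested.

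Hs578 and TT642 carried different sets of these receptors before any hairpin was induced. FPKM, which scales fragments by transcript length and library size, allows levels of different genes to be compared. In uninduced Hs578 hairpin lines AXL led at 307 ± 3.64 FPKM (SD, n = 3), followed by FGFR1 at 94.5 ± 8.01. MET at 60.2 ± 3.26, PDGFRA at 57.0 ± 16.9 and DDR2 at 50.3 ± 3.19 FPKM came next, and in this order MET overlapped PDGFRA and PDGFRA overlapped DDR2. PDGFRB at 23.6 ± 2.21 overlapped EGFR at 21.5 ± 1.47, and ERBB2 at 18.4 ± 1.67 overlapped DDR1 at 17.3 ± 0.782 FPKM. ERBB3 was lowest at 1.06 ± 0.328 FPKM. The uninduced TT642 hairpin lines were led by FGFR1 at 67.7 ± 7.61 FPKM (SD, n = 3). DDR2 at 48.5 ± 5.39, MET at 47.8 ± 12.6 and ERBB2 at 40.8 ± 5.19 FPKM followed, each overlapping its neighbour in that order. PDGFRA stood at 16.5 ± 2.17 FPKM, and AXL at 11.1 ± 1.55 overlapped DDR1 at 9.77 ± 2.15. ERBB3 at 1.31 ± 0.0998 overlapped EGFR at 0.980 ± 0.466, and PDGFRB at 0.175 ± 0.0546 FPKM was last. The order was not the same in the single uninduced parental TT642 library, where MET led at 86.0 FPKM and FGFR1 was at 58.9 FPKM.

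**Figure D1:**
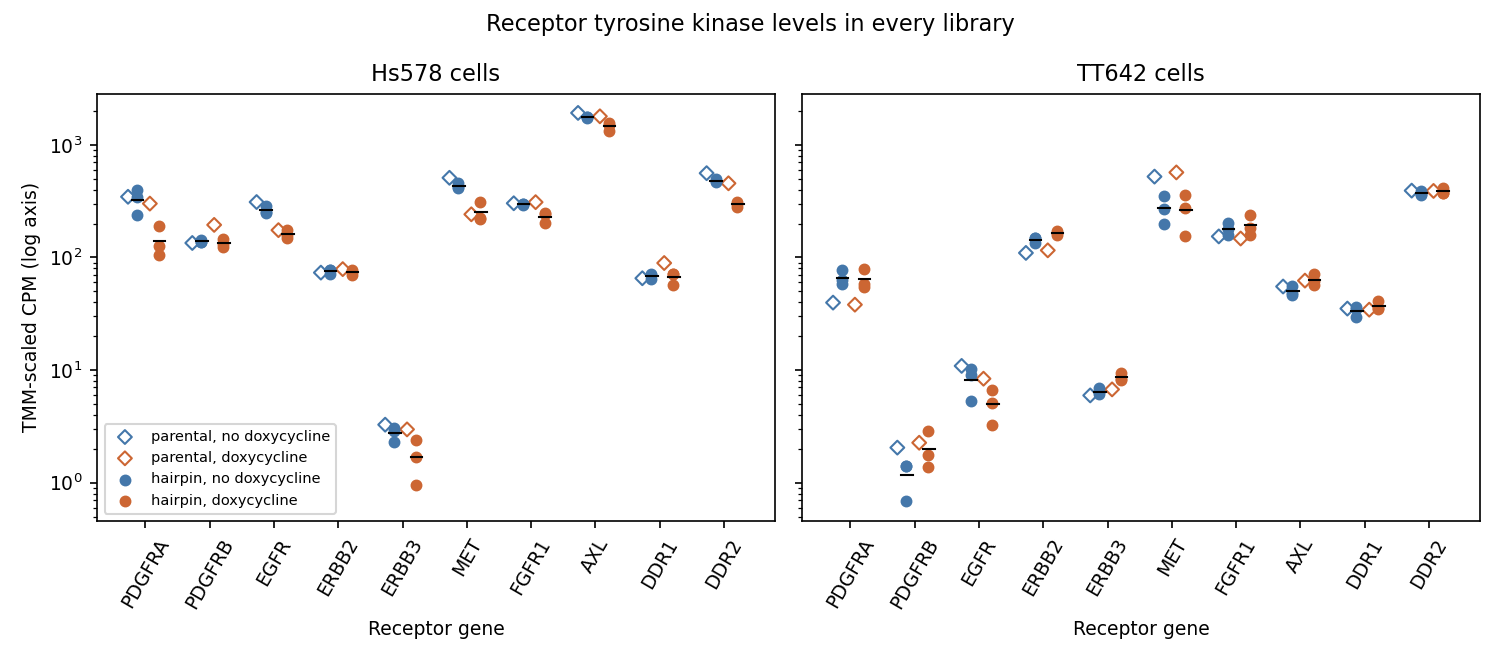
CPM of each receptor gene (log axis) in the 8 libraries of Hs578, left, and the 8 of TT642, right, with open diamonds for parental cells, filled circles for hairpin lines, blue without and orange with doxycycline, and a black line at the mean of each hairpin group. AXL lies at 1331 CPM or more in all 8 Hs578 libraries and at 71.3 CPM or less in all 8 of TT642.

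To ask which receptors distinguished the lines, uninduced Hs578 hairpin lines were compared with those of TT642 on the counts, with edgeR's quasi-likelihood test adjusted over all genes tested. Calls required an adjusted p under 0.05. Of the 10 receptors, 9 were called, 7 higher and 2 lower in Hs578, in a comparison that called 80.8% of all genes, 41.0% higher and 39.7% lower. The uninduced hairpin libraries of the lines did not overlap for any of the 10, with 8 higher and 2 lower in Hs578. Of all genes 84.1% were without overlap, 42.7% higher and 41.4% lower.

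The receptors that separated the lines most were PDGFRB, AXL and EGFR. PDGFRB read 142, 137 and 138 CPM in uninduced Hs578 hairpin lines 1 to 3 and 1.42, 0.681 and 1.39 CPM in those of TT642, where it rested on 14 to 25 counts. It was 121-fold higher in Hs578 (log2 difference 6.92, SE 0.22, adjusted p = 1.6e-12). AXL read 1735, 1759.8 and 1774 CPM in Hs578 and 48.6, 46.5 and 55.4 CPM in TT642, a 35.0-fold difference (log2 5.13, SE 0.12, adjusted p = 4.9e-14). EGFR read 286, 255 and 249 CPM against 10.3, 9.09 and 5.28 CPM, a 32.0-fold difference (log2 5.00, SE 0.24, adjusted p = 1.2e-09). Each of these sets of values lay far apart, with no intermediate library. PDGFRA differed by 4.95-fold (log2 2.31, SE 0.26, adjusted p = 7.8e-06), and here too no libraries overlapped, at 239 CPM or more in Hs578 and 77.0 CPM or less in TT642.

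The remaining receptors differed less between the lines. DDR1, FGFR1 and DDR2 were higher in Hs578 by 1.03 (SE 0.11), 0.72 (SE 0.14) and 0.37 (SE 0.08) on the log2 scale, with adjusted p-values of 7.1e-07, 0.00018 and 0.00052. MET, at 412 to 454 CPM in Hs578 and 198 to 348 CPM in TT642, missed the threshold (log2 0.66, SE 0.29, adjusted p = 0.055). In uninduced parental cells MET was not higher in Hs578, at 510 CPM against 523 CPM in TT642 (1 library each). Among the uninduced hairpin lines, ERBB2 and ERBB3 were the receptors that were higher in TT642. ERBB2 read 76.9, 78.1 and 71.9 CPM in Hs578 against 149, 134 and 149.9 CPM in TT642 (log2 -0.93, SE 0.08, adjusted p = 3.7e-08). ERBB3 read 3.08, 2.87 and 2.30 CPM against 6.41, 6.86 and 6.06 CPM (log2 -1.23, SE 0.23, adjusted p = 0.00017). On FPKM, limma did not call the line difference of DDR2 (0.05 on the log2(FPKM + 1) scale, adjusted p = 0.613) or that of ERBB3 (-0.17, adjusted p = 0.201).

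Induction of the PRRX1 hairpins in Hs578 was followed by lower levels of PDGFRA, DDR2, EGFR and ERBB3. In that comparison of 3 hairpin lines with and without doxycycline, 4 of the 10 receptors were called, all lower, while 29.3% of all genes were called and 14.1% were called lower. All 10 log2 fold changes lay below 0, with a median of -0.53 against 0.00 over all genes tested. The groups did not overlap for 6 receptors, all lower (PDGFRA, EGFR, MET, FGFR1, AXL and DDR2), where 44.1% of all genes were without overlap and 21.9% were lower. These are bulk samples, so fewer cells that express a receptor and less RNA per cell cannot be told apart. DESeq2 called 7 of the 10 lower, adding MET, FGFR1 and AXL, and 16.3% of all genes lower. Limma on log2(FPKM + 1) called 8 lower, with PDGFRB as the eighth, and 24.2% of all genes lower, on a scale where the median of all genes shifted to -0.10 and calls split into 1379 higher and 3075 lower genes, against 2139 and 1979 on the counts.

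PDGFRA had the largest log2 fold change of the 10. In Hs578 hairpin lines 1, 2 and 3 it read 397, 239 and 343 CPM without doxycycline and 106, 190.2 and 126 CPM with it. Every induced library lay below every uninduced one, and hairpin line 2 moved least: 26.7%, 79.5% and 36.8% of the level was left in lines 1, 2 and 3, with 95% counting intervals of 25.2% to 28.2%, 75.5% to 83.7% and 35.0% to 38.7%. The log2 fold change was -1.21 (SE 0.25, adjusted p = 0.0056). PRRX1 itself was left at its highest share, 32.1%, in the same line 2. The call was not made without hairpin 1 or hairpin 3 in the fit (adjusted p = 0.0862 and 0.137). Those fits called fewer of all genes too, with 1460 higher and 1218 lower without hairpin 1 and 376 and 464 without hairpin 3. With all libraries 2139 and 1979 were called, so the loss does not show which hairpins carried the call. Without hairpin 2 the log2 fold change was -1.68. PDGFRB, the sister receptor, read 142, 137 and 138 CPM without and 125, 145 and 132 CPM with doxycycline, with overlapping groups (log2 -0.06, SE 0.14, adjusted p = 0.80).

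DDR2 was the receptor whose call was kept most often. It read 493, 469 and 476 CPM in uninduced Hs578 hairpin lines and 280.0, 309.5 and 299 CPM in induced ones, and the gap between the groups was wider than the range within either. The share left was 56.8%, 66.0% and 62.8% in lines 1, 2 and 3, and the log2 fold change was -0.69 (SE 0.08, adjusted p = 0.00015). It was called under each of 23 alternative fits, with adjusted p-values from 5.11e-23 to 0.0136. DDR1, the other collagen receptor, read 70.3, 71.0 and 64.5 CPM without and 71.6, 71.9 and 56.5 CPM with doxycycline (log2 -0.04, SE 0.11, adjusted p = 0.82), and its sign turned without hairpin 3.

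In the ERBB family EGFR and ERBB3 were called lower. EGFR read 286, 255 and 249 CPM without and 177, 159 and 148 CPM with doxycycline, which left 61.7%, 62.4% and 59.2% in lines 1, 2 and 3. The shares were alike in the 3 lines, and the groups did not overlap. Its log2 fold change was -0.71 (SE 0.19, adjusted p = 0.018), a call that was lost without hairpin 3 (adjusted p = 0.081), without its induced library 2 or 3 (0.0604 and 0.0728) or without the uninduced library 1 (0.0735), and with limma on log2(FPKM + 0.1) (0.0623). ERBB3 read 3.08, 2.87 and 2.30 CPM without and 1.70, 2.39 and 0.946 CPM with doxycycline, from 40 to 53 and 16 to 29 counts. Its groups overlapped, since induced line 2 lay above uninduced line 3. The log2 fold change was -0.75 (SE 0.27, adjusted p = 0.047), and 13 of 23 alternative fits did not call it, with adjusted p-values over the alternatives from 0.0166 to 0.231. ERBB2 had overlapping groups, at 76.9, 78.1 and 71.9 CPM without and 74.1, 77.6 and 69.9 CPM with doxycycline (log2 -0.03, SE 0.08, adjusted p = 0.79).

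MET, FGFR1 and AXL were lower in every induced Hs578 library than in any uninduced one but missed the threshold. MET read 454, 424 and 412 CPM without and 311, 220.4 and 226 CPM with doxycycline (log2 -0.77, SE 0.29, adjusted p = 0.071). FGFR1 read 296, 295 and 296 CPM against 247, 242 and 201 CPM (log2 -0.36, SE 0.13, adjusted p = 0.057). AXL, the most abundant of the 10, read 1735, 1759.8 and 1774 CPM against 1565, 1487 and 1331 CPM (log2 -0.27, SE 0.10, adjusted p = 0.062). The replicate block pairs the libraries with the same hairpin number. With it MET and FGFR1 were called at adjusted p-values of 0.000225 and 0.0119, whereas AXL was not (0.0534). FGFR1 and AXL were also called with relative log expression scaling (adjusted p = 0.0439 and 0.041).

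**Figure D2:**
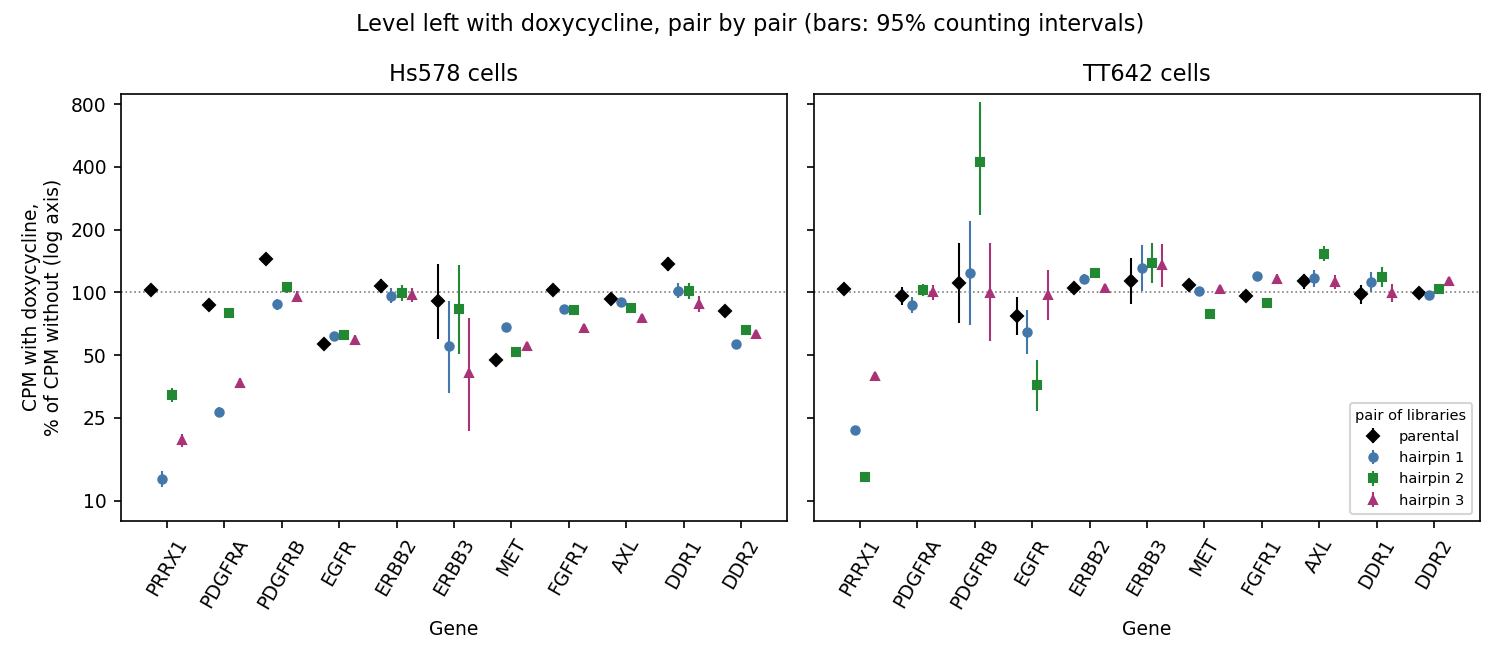
Level with doxycycline as a percentage of the level without it (log axis) for PRRX1 and the 10 receptors, in the parental pair (black diamonds) and hairpin lines 1 to 3 (coloured) of Hs578, left, and TT642, right, with bars for 95% counting intervals and a dotted line at no change. EGFR and MET in Hs578 were left at 56.3% and 47.4% in the parental pair, beside 59.2% to 62.4% and 52.0% to 68.4% in the hairpin lines, whereas PDGFRA was left at 87.0% in the parental pair.

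Doxycycline was also given to parental Hs578 cells, which carry no hairpin, and this pair is the background for the hairpin effect. PRRX1 was left at 103% there (95% counting interval 98.8% to 107%). EGFR went from 311 to 175 CPM, 56.3% of its level (53.7% to 59.0%), and MET from 510.0 to 242 CPM, 47.4% (45.6% to 49.3%). Both shares were below those of all 3 hairpin lines. DDR2 went from 560.5 to 456 CPM, 81.3% (78.8% to 83.9%), and PDGFRA from 346 to 301 CPM, 87.0% (83.7% to 90.5%). For these receptors the 3 hairpin lines were all lower than the parental share. PDGFRB and DDR1 were higher in parental cells with doxycycline, at 145% (137% to 153%) and 137% (126% to 148%), while the hairpin lines had 87.7% to 106% and 87.6% to 102%. AXL was left at 93.3% (91.8% to 94.8%), ERBB3 at 90.8% (59.8% to 137%), FGFR1 at 102% (98.3% to 106%) and ERBB2 at 107% (99.1% to 116%). With 1 parental library per state, these intervals cover counting error only.

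The hairpin effect in Hs578 net of the parental doxycycline effect was tested in the same fit, with the parental libraries assumed to vary like the hairpin groups. None of the 10 receptors was called, where 0.406% of all genes were. The count at an unadjusted p under 0.05 was 2 (DDR1 and DDR2), a share near the 14.2% of all genes, and DESeq2 called 1, DDR2, and 2.11% of all genes. The net log2 difference was -1.01 for PDGFRA (SE 0.49, adjusted p = 0.386), -0.40 for DDR2 (SE 0.16, adjusted p = 0.264), -0.61 for ERBB3 (SE 0.50, adjusted p = 0.634) and -0.49 for DDR1 (SE 0.22, adjusted p = 0.328). PDGFRB, which hardly moved in the hairpin lines, had a net difference of -0.59 (SE 0.29, adjusted p = 0.373), since it was higher with doxycycline in the parental pair. The net difference was -0.40 for FGFR1, -0.17 for AXL and -0.14 for ERBB2. It was 0.12 for EGFR (SE 0.39, adjusted p = 0.957) and 0.31 for MET (SE 0.57, adjusted p = 0.886). PDGFRA was called in the net comparison without hairpin 2 (adjusted p = 0.0307). PRRX1 itself was not called in this comparison (net -2.32, SE 0.71, adjusted p = 0.180). For EGFR and MET the lower levels with doxycycline were at least as large in the cells without a hairpin.

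In TT642, where PRRX1 started higher, hairpin induction gave no receptor call. PRRX1 went from 1213, 1409 and 1301 CPM to 265, 184 and 513 CPM in hairpin lines 1, 2 and 3 (log2 -2.03, SE 0.36) and was itself not called (adjusted p = 0.166), in a comparison that called 0.0285% of all genes. In Hs578 hairpin lines it read 291, 227 and 262 CPM without and 37.1, 72.8 and 51.0 CPM with doxycycline. The PRRX1 levels of induced TT642 thus overlapped those of uninduced Hs578 hairpin lines. Their part in the responses was not tested. Of the 10 receptors, edgeR and DESeq2 each called 0, where DESeq2 called 0.563% of all genes. An unadjusted p under 0.05 was found for 4 of the 10 and for 7.82% of all genes. The groups did not overlap for ERBB2, ERBB3 and AXL, all higher, where 8.54% of all genes were higher without overlap. The median log2 fold change over the 10 was 0.12, against 0.00 over all genes.

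The receptors with the smallest p-values in TT642 went in both directions. AXL read 48.6, 46.5 and 55.4 CPM without and 56.7, 71.3 and 62.0 CPM with doxycycline (log2 0.34, SE 0.10, adjusted p = 0.366). ERBB2 read 149, 134 and 149.9 CPM against 173, 165 and 157 CPM (log2 0.20, SE 0.08, adjusted p = 0.519). ERBB3 read 6.41, 6.86 and 6.06 CPM against 8.38, 9.48 and 8.16 CPM (log2 0.43, SE 0.21, adjusted p = 0.652). For these 3 receptors each induced library lay above each uninduced one. EGFR, at 10.3, 9.09 and 5.28 CPM without and 6.63, 3.25 and 5.12 CPM with doxycycline, had a log2 fold change of -0.74 (SE 0.25, adjusted p = 0.461), close in size to that in Hs578, with overlapping groups. PDGFRB was at most 2.88 CPM in any TT642 library (log2 0.80, SE 0.29, adjusted p = 0.481). PDGFRA, MET, FGFR1, DDR1 and DDR2 had log2 fold changes of -0.05, -0.04, 0.12, 0.13 and 0.06. In the parental TT642 pair the 10 receptors were left at 77.0% (EGFR) to 113% (ERBB3 and AXL), and net of that pair no receptor was called, nor was any gene (0.0%). None of the 10 had an unadjusted p under 0.05 there, as 1.28% of all genes did, and DESeq2 called none.

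**Figure D3:**
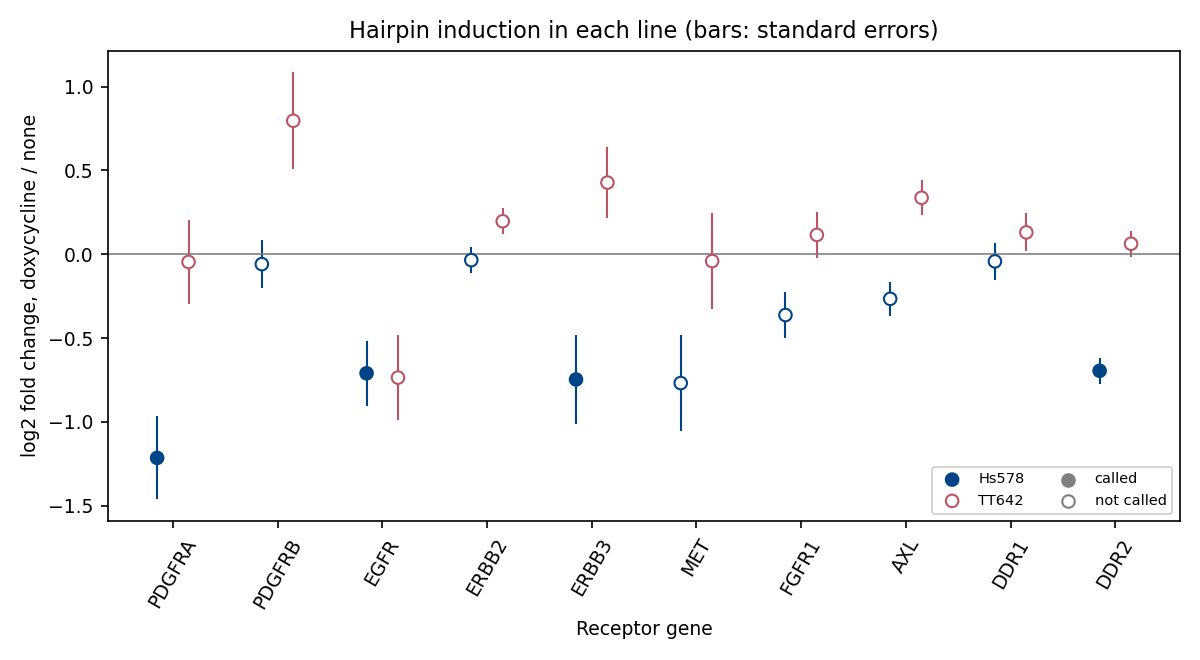
Log2 fold change of each receptor with hairpin induction in Hs578 (blue) and TT642 (red), with bars for 1 standard error and filled symbols where the change was called at an adjusted p under 0.05. The 4 filled symbols, PDGFRA, EGFR, ERBB3 and DDR2, are all in Hs578 and below 0.

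Whether the lines responded differently was tested as the difference of the induction effects. DDR2 and AXL were called, both lower, which was 2 of 10 receptors in a comparison that called 5.24% of all genes and 2.48% lower. The effect on DDR2 was lower in Hs578 than in TT642 by a log2 difference of -0.76 (SE 0.11, adjusted p = 0.0057). DDR2 was left at 56.8% to 66.0% in Hs578 hairpin lines and at 97.2% to 113% in those of TT642. For AXL the difference was -0.60 (SE 0.15, adjusted p = 0.038), with 75.0% to 90.2% left in Hs578 and 112% to 153% in TT642. The parental pairs, which carry no hairpin, differed in the same direction. DDR2 was left at 81.3% in parental Hs578 and 99.4% in parental TT642 cells, and AXL at 93.3% and 113%. The difference between the lines was not tested net of these pairs. The AXL call was lost in 13 of 22 alternative fits, each with 1 hairpin or library left out (adjusted p from 0.0535 to 0.34 among those), and was kept without induced library 1 of either line. The DDR2 call was lost without hairpin 2 (adjusted p = 0.0503) or 3 (0.207). ERBB3 (-1.17, SE 0.34, adjusted p = 0.058) and PDGFRA (-1.17, SE 0.35, adjusted p = 0.076) differed by more but with wider errors. With the replicate block ERBB3, FGFR1 and MET were called as well (adjusted p = 0.0219, 0.0445 and 0.0119). EGFR showed no difference that could be told from 0 (0.03, SE 0.31, adjusted p = 1.0).

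Uninduced hairpin lines were compared with uninduced parental cells to see what the derived lines carried before doxycycline. No receptor and no gene was called in Hs578 (0.0%), where none of the 10 and 1.91% of all genes had an unadjusted p under 0.05 and DESeq2 called none. In TT642 0 of 10 receptors were called, where 0.919% of all genes were, and DESeq2 called none of the 10 and 1.51% of all genes. An unadjusted p under 0.05 was found for 2 receptors, a share near the 12.0% of all genes. The 2 were ERBB2, at 109.7 CPM in parental cells and 134 to 149.9 CPM in hairpin lines (log2 0.39, SE 0.11, adjusted p = 0.156), and MET. MET was at 523 CPM in parental TT642 cells and at 272, 198 and 348 CPM in hairpin lines 1, 2 and 3 (log2 -0.94, SE 0.39, adjusted p = 0.366). With doxycycline MET kept that order, at 569 CPM in parental cells and 277, 156 and 361 CPM in the hairpin lines.

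The promoters of 3 of the receptors that were called lower in Hs578 are shown because PRRX1 is a homeodomain protein, and homeodomains as a class bind a core written TAAT on 1 strand and ATTA on the other. Each is the 250 bases before the most upstream annotated start, from RefSeq on GRCh38.p14, with TAAT or ATTA in capitals. The counts were made on another build, hg19 per the submitters' processing notes, so these coordinates were not joined to the counts. PDGFRA lies at chr4:54229043-54229292, EGFR at chr7:55018767-55019016 and DDR2 at chr1:162630613-162630862, all on the plus strand.
PDGFRA: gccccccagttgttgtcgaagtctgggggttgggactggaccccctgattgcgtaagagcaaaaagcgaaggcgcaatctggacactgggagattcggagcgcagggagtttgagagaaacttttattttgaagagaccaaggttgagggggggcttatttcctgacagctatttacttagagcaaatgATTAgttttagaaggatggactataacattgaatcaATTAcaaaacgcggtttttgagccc
EGFR: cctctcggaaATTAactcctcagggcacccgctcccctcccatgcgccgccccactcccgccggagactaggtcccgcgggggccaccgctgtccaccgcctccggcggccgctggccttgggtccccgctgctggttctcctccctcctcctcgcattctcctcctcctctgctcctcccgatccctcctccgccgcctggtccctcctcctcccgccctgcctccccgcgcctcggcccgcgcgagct
DDR2: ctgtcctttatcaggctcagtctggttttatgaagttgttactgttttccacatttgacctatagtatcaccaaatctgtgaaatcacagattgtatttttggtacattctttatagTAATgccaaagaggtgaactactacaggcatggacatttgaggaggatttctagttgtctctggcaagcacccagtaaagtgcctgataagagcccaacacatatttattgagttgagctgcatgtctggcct

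The PDGFRA window held 2 matches, which start 61 and 25 bases before the start site. The EGFR window held 1 match 240 bases and the DDR2 window 1 match 133 bases before the start site. The GC content was 46.8%, 73.6% and 40.0% in that order, against a median of 58.0% over 35116 promoter windows. RefSeq entries were found for 8 of the 10 receptors, with 20 start sites among them. TAAT on either strand was in 8 of those 20 windows, belonging to PDGFRA, EGFR, DDR1 and DDR2, and in 47.4% of all windows. TAATTA, the palindrome that holds both strands' cores, was in 0 of the 20 and in 4.35% of all. The AP-1 motif TGACTCA was in 2 of 20 and in 4.2% of all, on either strand. A match of 4 letters this common is a description of the sequence, and the binding of PRRX1 was not measured in these data.

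Ligands of these receptors also differed between the lines. HGF, the ligand of MET, was at 296, 321 and 296 FPKM in uninduced TT642 hairpin lines and at 0.129, 0.0683 and 0 FPKM in those of Hs578 (log2 -12.56, SE 0.28, adjusted p = 3.1e-14). The size of that fitted difference depends on the prior count, since the Hs578 libraries held almost no HGF reads. MET itself differed little, as given above. NRG1, a neuregulin that binds ERBB3, was at 31.4 ± 2.32 FPKM in Hs578 and 0.0398 ± 0.0689 FPKM in TT642 (SD, n = 3 each). FGF5 was at 29.8 ± 5.05 FPKM in Hs578 and 0.0333 ± 0.0334 in TT642, whereas FGF2 was at 5.96 ± 0.562 and 121 ± 5.55 FPKM (SD, n = 3 each). The FGF ligand at the higher level was thus not the same in the lines, while FGFR1 was among the most abundant receptors in both.

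PDGF ligands were likewise split between the lines, as were GAS6 and PROS1. PDGFC was at 14.5 ± 1.18 FPKM in Hs578 and 145 ± 7.24 FPKM in TT642, and PDGFA at 35.0 ± 3.44 and 15.9 ± 2.69 FPKM (SD, n = 3 each). GAS6 was at 25.4 ± 2.22 and 11.0 ± 1.14 FPKM, and PROS1, protein S, at 3.41 ± 0.118 and 58.1 ± 3.74 FPKM. Each of these differences was called, as were those of HGF, NRG1, FGF5 and FGF2. For the collagen receptors, COL1A2 was at 357 ± 42.4 FPKM in Hs578 and 0.136 ± 0.0805 in TT642, and COL3A1 at 91.6 ± 14.8 and 181 ± 2.18 FPKM (SD, n = 3 each). COL4A1 was at 34.9 ± 1.93 FPKM in Hs578 and listed at 0 in all 3 TT642 libraries. The ligand lists held further called genes at 1 FPKM or more in either line. A place on these lists, for PROS1 as for the others, does not show that the product binds a receptor described here. HBEGF, NRG2, NRG3, COL1A1, COL4A2 and COL5A1 were higher in Hs578, and PDGFB, PDGFD, TGFA, FGF10, FGF11 and FGF18 in TT642. FGF1 was not called (adjusted p = 0.0647).

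**Figure D4:**
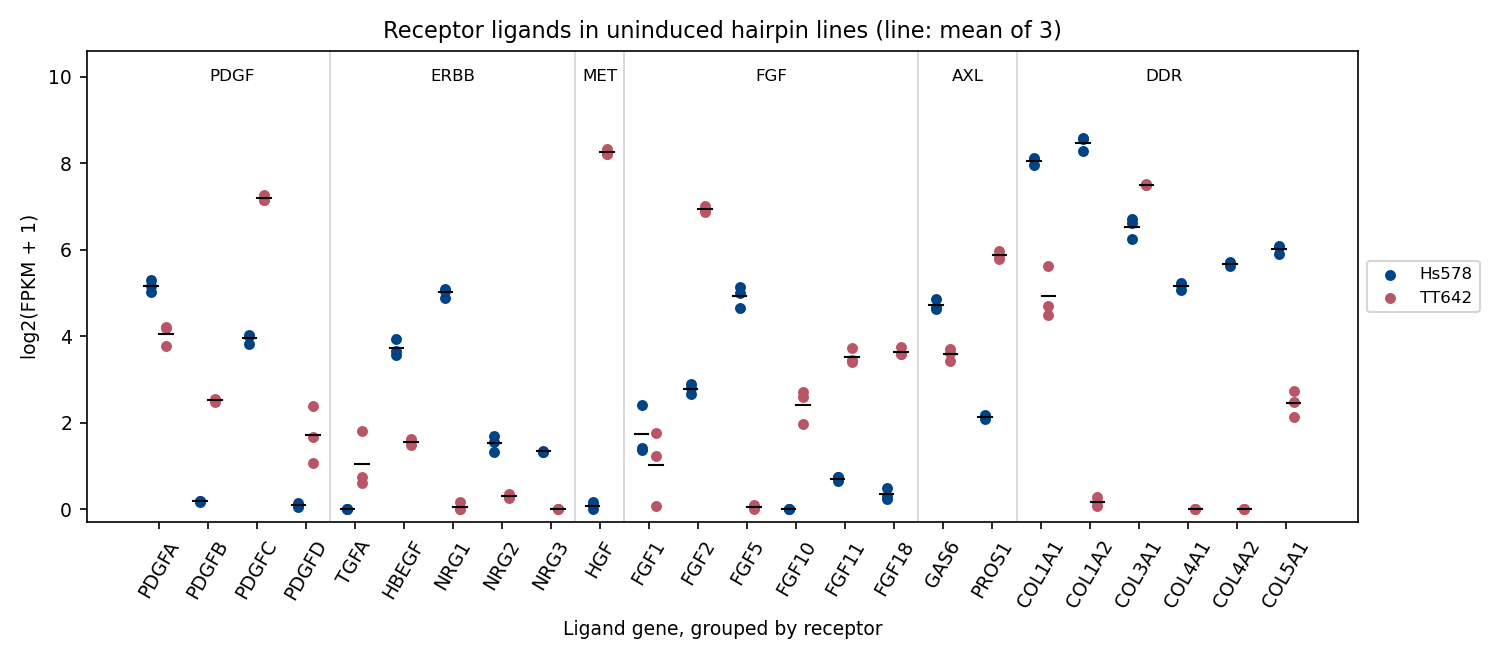
Log2(FPKM + 1) of 24 genes on the ligand lists, grouped by the receptor they were listed for. Values are from the 3 uninduced hairpin libraries of Hs578 (blue) and of TT642 (red), with a black line at each mean. HGF at 304 FPKM and PDGFC at 145 FPKM are high in TT642, and NRG1 at 31.4 FPKM and COL1A2 at 357 FPKM in Hs578.

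Among ligands, the collagens rose and several growth factors fell in Hs578 hairpin lines with doxycycline, and the collagens were higher with doxycycline in parental cells too. All 6 collagens tested of 8 on the list were called higher, with a median log2 fold change of 1.09 against 0.00 over all genes, in the comparison that called 15.2% of all genes higher. COL1A1 read 2336, 2046 and 2159 CPM without and 6721, 8701 and 12257 CPM with doxycycline (log2 2.08, SE 0.63, adjusted p = 0.036). In the parental pair it read 2042 and 6602 CPM. COL1A2, COL3A1, COL4A1, COL4A2 and COL5A1 rose by 0.98, 1.20, 0.72, 0.62 and 1.20 on the log2 scale. Net of the parental pair none of the 6 was called, at log2 differences of 0.39 for COL1A1, -0.69 for COL1A2, -1.03 for COL3A1, 0.15 for COL4A1, 0.07 for COL4A2 and 0.11 for COL5A1. COL1A2 went from 2347 to 7474 CPM and COL3A1 from 529 to 2480.5 CPM in the parental pair, each a higher ratio than in any of the 3 hairpin lines. Of 7 ERBB ligands tested, 3 fell: NRG1 by 0.91, NRG2 by 0.78 and BTC by 1.13 on the log2 scale. NRG1 read 66.1, 58.6 and 62.4 CPM without and 31.3, 26.8 and 41.1 CPM with doxycycline, and 65.2 and 30.0 CPM in the parental pair. FGF5 fell by 1.22 (SE 0.17, adjusted p = 0.00059), from 211, 149 and 183 CPM to 77.0, 71.6 and 83.7 CPM, and the parental pair read 232 and 116 CPM. PDGFA rose by 0.52 (SE 0.15, adjusted p = 0.019), from 89.1, 107 and 94.1 CPM to 149, 134 and 132 CPM, against 87.9 and 79.0 CPM in the parental pair. PDGFC fell by 0.27, and GAS6 rose by 0.44. None of PDGFC, GAS6, NRG2 and BTC was called net of the parental pair. Their net log2 differences were -0.41, -0.04, -0.09 and -1.12.

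Other receptors of the same families and of other families were counted in the same comparison. In the families of the 10, 8 of 11 further receptors were tested, of which FGFR3 rose by 0.81 and MERTK and ERBB4 fell by 1.20 and 1.09 on the log2 scale. MERTK, a relative of AXL, was at 1.84 to 4.33 CPM before induction, and ERBB4 at 1.16 to 1.92 CPM. Of 24 tested among 30 other receptor tyrosine kinases 0 rose and 2 fell, the neurotrophin receptor NTRK3 by 1.57 and the insulin-like growth factor receptor IGF1R by 0.51. NTRK3 read 4.13, 4.21 and 4.32 CPM without and 1.16, 1.48 and 1.60 CPM with doxycycline, a gap without overlap. In all, 3 of 8 and 2 of 24 were called, where 29.3% of all genes were. None of these receptors was called net of the parental pair. The net log2 differences were 0.19 for FGFR3, -0.70 for MERTK, -0.89 for ERBB4, -1.13 for NTRK3 and -0.29 for IGF1R.

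Downstream of the receptors, more genes were called lower than higher, in a comparison that called 15.2% of all genes higher and 14.1% lower. Of 22 adaptors and signal carriers 2 rose and 9 fell in Hs578, with SOS1, the RAS exchange factor, falling by 0.59 (adjusted p = 0.00065), PIK3CA by 0.61, PTPN11 by 0.37, and HRAS rising by 0.41. Of 20 inhibitors and turnover genes 1 rose and 9 fell, with CBL, a ubiquitin ligase of activated receptors, falling by 0.66, LRIG1, which lowers ERBB receptor levels, by 0.67, SOCS5 by 0.60 and SPRED2 by 0.49. Of 18 ERK target genes 1 rose and 8 fell, with a median of -0.44. DUSP6, the ERK phosphatase, read 112, 123 and 50.3 CPM without and 34.2, 45.6 and 47.4 CPM with doxycycline (log2 -1.17, SE 0.29, adjusted p = 0.013). Uninduced line 3 stood apart from lines 1 and 2 there, and the parental pair read 67.0 and 63.3 CPM. ETV5 fell by 0.51, and IER3 rose by 0.52. Net of the parental pair none of the genes named here was called. The net log2 differences were -0.28 for SOS1, -0.20 for PIK3CA, 0.12 for PTPN11 and 0.75 for HRAS. For CBL, LRIG1, SOCS5 and SPRED2 they were 0.06, -0.58, -0.53 and -0.03. For DUSP6, ETV5 and IER3 they were -1.08, -0.22 and -0.14. SPRY2, SPRY4, SPRED1 and SPRED2 stand on the inhibitor and the ERK lists.

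Immediate early genes, which respond to handling and serum as well as to receptors, summed to 803 to 2981 CPM in uninduced Hs578 hairpin lines and 959 to 1248 CPM in induced ones, and to 1055 and 608 CPM in the parental pair. Of the 8 listed, 3 were called lower in the hairpin lines, where 14.1% of all genes were. Their part in the ERK target calls was not tested. Over all 112 tested genes of the signalling lists, 13 rose and 33 fell in Hs578 (median -0.18, 0.00 over all genes), where 15.2% of all genes rose and 14.1% fell. Net of the parental pair, edgeR called 0 of the 112 and 0.406% of all genes, and DESeq2 called 3 and 2.11% of all genes. There 16 had an unadjusted p under 0.05, where 14.2% of all genes did. In TT642 edgeR called 0 and 0.0285% of all genes, and DESeq2 called 3 and 0.563% of all genes. There too 16 had an unadjusted p under 0.05, where 7.82% of all genes did.

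The genes whose log2 CPM ran most like that of a called receptor over the 8 Hs578 libraries, parental ones included, were found among 10761 genes by Pearson's correlation, as a description only. These libraries come in 4 groups, and any gene that differs between the groups in the same way scores high. For PDGFRA they were COLEC12 (0.99), KCNS3 (0.99) and KIAA0513 (0.98). For EGFR they were DYNC1H1, SAMD5 and ASXL2, at 0.996, 0.996 and 0.995, and for DDR2 they were POGK, GLIPR1 and KDM1B, at 0.991, 0.988 and 0.987. The correlation with PRRX1 itself was 0.96 for PDGFRA and 0.97 for DDR2, and 0.75 for EGFR.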

How the data were processed

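RNeasy kits gave the RNA, of which 500 ng went into stranded TruSeq mRNA libraries, per the labels' protocols. The authors deposited unnormalized counts of reads by gene symbol (20114 genes) and FPKM values (20111 genes), each as 1 table with a column per library. Per the submitters' processing notes the build was hg19. Aligner, counter, annotation and strand use: not given in the sources used here. Therefore reads shared with near-identical or overlapping genes could have been split in an unknown way.

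The counts were fitted with edgeR 4.0.16 in R 4.3.3 (quasi-likelihood test, two-sided, TMM scaling, default filter on the 8 groups, robust moderation), with all 16 libraries and 1 mean per group, in 8 comparisons. P-values were adjusted by Benjamini-Hochberg over the 14035 genes tested. Levels are TMM-scaled CPM, log2 CPM used a prior count of 2, and counting intervals are exact binomial at 95%. Alternatives were DESeq2 1.42.0, limma 3.58.1 on log2(FPKM + 1) and log2(FPKM + 0.1) for genes with a mean FPKM of at least 0.5, relative log expression scaling, no filter on low counts, no robust moderation, 1 line alone, a replicate block, and leaving out each hairpin number or library. On simulated counts for the Hs578 induction comparison (13600 genes), 92% of 2-fold and 98% of 4-fold changes were recovered, with 14 false calls. Only 200 genes were changed there, all with a mean above 4 CPM. No difference between lines or between parental and hairpin cells was simulated, so these rates need not hold for the real libraries.

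All 10 receptors are named, with PRRX1 as the target, up to 4 called genes of each list with the smallest adjusted p in Hs578, ligands with a mean FPKM of at least 1 in either line, and the 3 genes most like each called receptor where its mean log2 CPM reached 2. The receptors and lists were chosen with earlier results of these data known. Libraries of a line with the same hairpin number were read from their titles as coming from the same derived line, so the number pairs them. The deviations from group means of such pairs correlated at 0.128, -0.028 and 0.001 in Hs578 and 0.440, 0.415 and 0.421 in TT642. No pair of libraries agreed within sampling noise (lowest chi-square per degree of freedom 5.55). Promoter windows came from RefSeq's table on GRCh38.p14, matched by symbol.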

Additional observations from a re-analysis of the deposited data

Results flagged for a closer look

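The induction effects on AXL and DDR2 differed between the lines by the test of the difference itself. For AXL the effect in Hs578 minus that in TT642 was -0.60 on the log2 scale (SE 0.15, adjusted p = 0.038, edgeR), with AXL lower in 3 of 3 induced hairpin lines of Hs578 and higher in 3 of 3 of TT642. For DDR2 it was -0.76 (SE 0.11, adjusted p = 0.0057), with DDR2 lower in 3 of 3 hairpin lines of Hs578 and left at 97.2%, 103% and 113% in those of TT642. The AXL call was lost in 13 of 22 alternative fits and the DDR2 call in 2. In the parental pairs, without a hairpin, AXL was left at 93.3% in Hs578 and 113% in TT642, and DDR2 at 81.3% and 99.4%. The difference was not tested net of these pairs.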

How the results depend on the processing

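Each group held 3 hairpin lines or 1 parental library, and ERBB3 in Hs578 and PDGFRB in TT642 rest on few counts. In Hs578 induction 4 receptors were called, 7 with DESeq2, 8 with limma on log2(FPKM + 1) and 1 to 7 with a hairpin or library left out. With all libraries 2139 genes were called higher and 1979 lower of 14035. Without hairpin 3 only DDR2 was called, and over all genes 376 were called higher and 464 lower of 13965. There were 2 receptor calls without uninduced library 1 (1196 genes higher, 1057 lower) or induced library 3 (1397 and 1283). There were 7 without induced TT642 library 2 (2253 and 2141). The difference between the lines gave 2 calls, 5 with DESeq2 (10.2% of all genes) and 5 with the replicate block (12.6%). Limma on log2(FPKM + 1) and log2(FPKM + 0.1) gave 6 and 5 (8.85% and 6.2%). With a hairpin or library left out there were 0 to 3. Without hairpin 3 there were 0, and over all genes 0 were called higher and 2 lower. Without hairpin 2 PDGFRA alone was called (11 genes higher, 27 lower). There were 3 without induced Hs578 library 1 (1158 and 924) or 2 (82 and 111), against 387 and 348 genes with all libraries. Net of the parental pair, Hs578 gave 0 calls, 1 with DESeq2 and 0 to 1 with a hairpin or library left out. Without hairpin 2, where PDGFRA was called, 65 genes were called higher and 74 lower of 13931, against 41 and 16 with all libraries. In the paired fits with the replicate block Hs578 induction gave 6 calls (34.6% of all genes), and no receptor call other than those given in the text changed. Directions turned only among changes that were not called, each with a hairpin or library left out. In Hs578 the log2 fold change then ran from -0.14 to 0.0045 for PDGFRB, from -0.075 to 0.0042 for ERBB2 and from -0.099 to 0.066 for DDR1. In TT642 it ran from -0.23 to 0.082 for PDGFRA, from -0.33 to 0.23 for MET, from -0.065 to 0.25 for FGFR1 and from -0.00084 to 0.11 for DDR2. Over 79 results and 1784 alternative values, 1581 kept direction and call, 148 lost the call, 42 gained it and 13 turned.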
